A study of Mus musculus with 4 samples.

Results

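Heat shock proteins are molecular chaperones, and 10 of their genes were examined in single haematopoietic stem cells (HSC) of the mouse: Hspa1a, Hspa1b, Hsp90aa1, Hsph1, Dnajb1 and Hspb1, grouped as stress-inducible, and Hsp90ab1, Hspa8, Hspd1 and Hspe1, grouped as constitutive. They are 10 of the 24411 gene rows in the deposited tables, and all 10 were found there. The genes were chosen with their Mat KO to WT difference already known, so the genotype values below are descriptions and carry no test.

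The study set bone marrow HSC of Mat KO mice against HSC of wild-type (WT) mice, with 2 libraries a genotype. Its title concerns small nucleolar RNAs of the imprinted Dlk1-Gtl2 locus in stem cell self-renewal and translation. The labels give no age, sex or strain, do not spell out the Mat KO allele, and leave it unsaid whether replicate libraries are different animals, so any spread between libraries may be technical. Sorted cells waited on ice and were picked singly by mouth pipette into lysis buffer. An oligo-dT primer then added the barcode of the cell and a random tag, the unique molecular identifier (UMI), and a UMI count stands for tagged cDNA from the 3′ end of an RNA and needs no division by gene length. Levels are given as CPM, the UMIs of a gene over the summed cells of a library scaled to a total of 1000000, and cells with at least 1000 detected genes were used. That threshold fell in a gap, since the poorest cell used had 1134 detected genes and the richest barcode left out had 769.

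A chaperone binds unfolded stretches of other proteins and lets them fold without clumping. HSP70 proteins work with J-domain partners that deliver clients and with nucleotide exchange factors such as the HSP110 proteins, HSP90 finishes signalling clients, and HSP60 with its lid HSP10 folds proteins inside mitochondria. When unfolded protein builds up, heat shock factor 1 (HSF1) binds inverted GAA repeats, called heat shock elements, and turns on the inducible genes, while the constitutive genes are read in unstressed cells. Long-term HSC are known for a low rate of protein synthesis and for a dependence on well-kept protein folding, and tissue dissociation and sorting are themselves known to raise stress transcripts.

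The promoters show how alike the 2 inducible HSP70 genes are and which of the 10 genes carry the core of a heat shock element close to the start. RefSeq promoter windows (GRCm38.p6, 250 bases before to 50 after the start) were found for 7 of the 10 genes, and Hsp90aa1, Hsp90ab1 and Hspa8 are named only. The motifs searched were the 2-unit cores GAANNTTC and TTCNNGAA, each of which reads the same on both strands, and the 3-unit forms GAANNTTCNNGAA and TTCNNGAANNTTC, each of which is the other read on the opposite strand. The 3-unit forms contain both 2-unit cores. Capitals mark a match. Hspa1a (chr17:34972157-34972306, minus strand) and Hspa1b (chr17:34959239-34959388, minus strand) are shown for the 150 bases before the start, where they differ at 1 base, against 4 bases over the full 300.
Hspa1a: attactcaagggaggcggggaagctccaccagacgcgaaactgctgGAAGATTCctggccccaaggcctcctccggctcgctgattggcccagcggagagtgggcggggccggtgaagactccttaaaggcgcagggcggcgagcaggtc
Hspa1b: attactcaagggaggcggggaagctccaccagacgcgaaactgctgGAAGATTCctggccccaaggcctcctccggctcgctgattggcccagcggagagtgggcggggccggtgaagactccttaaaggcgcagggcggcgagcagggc
Both hold GAANNTTC once, 104 bases before the start.

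Hspb1, the small heat shock protein HSP27 that holds unfolded clients until other chaperones act, holds GAANNTTC at 117 and again at 97 bases before its start (chr5:135887769-135887918, plus strand). Dnajb1, the J-domain partner of HSP70, holds no match in the same stretch (chr8:83608025-83608174, plus strand) or in the rest of its windows.
Hspb1: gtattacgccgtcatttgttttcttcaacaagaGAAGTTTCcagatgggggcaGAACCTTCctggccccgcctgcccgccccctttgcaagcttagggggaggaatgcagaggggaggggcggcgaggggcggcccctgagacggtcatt
Dnajb1: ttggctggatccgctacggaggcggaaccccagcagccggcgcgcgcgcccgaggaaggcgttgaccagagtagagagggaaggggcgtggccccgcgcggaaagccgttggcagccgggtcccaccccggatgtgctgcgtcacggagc
Hspb1 therefore shows the core where the letters of Dnajb1 do not, which says nothing of whether HSF1 binds either.

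Hspe1, which encodes HSP10, and Hspd1, which encodes HSP60, lie head to head on chromosome 1 and their annotated genes share 112 bases. An unbroken run of overlapping 3-unit matches lies within the 30 bases at chr1:55088053-55088082, inside the annotated Hspd1 gene and before the start of Hspe1. These bases are given here on the strand of each gene. Hsph1, the HSP110 exchange factor, has a 3-unit match that begins 36 bases after its start (shown within chr5:149636287-149636306, minus strand).
Hspe1: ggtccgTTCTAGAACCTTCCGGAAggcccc
Hspd1: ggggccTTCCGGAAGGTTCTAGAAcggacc
Hsph1: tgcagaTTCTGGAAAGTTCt
In all, 6 of the 7 genes hold a 2-unit core and 3 hold a 3-unit form in at least 1 window. Hspd1 has 2 windows in the table, and its matches are all in 1 of them. Among 32851 RefSeq promoters of the same length, 7.86% hold GAANNTTC, 8.52% hold TTCNNGAA and 15.1% hold either. For the 3-unit forms the shares are 0.310%, 0.320% and 0.603%. The shares are per promoter and the counts above are per gene, so they are not on the same footing. The Hspd1 window with the matches shares 285 bases with that of Hspe1, so these 2 genes are not separate cases, and a match is a description of letters only.

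The libraries held 44 and 48 cells of Mat KO replicates 1 and 2, and 48 cells of each WT replicate, 188 in all. Median depth was 33612.5 and 27845 UMIs per cell in Mat KO libraries, against 53092.5 and 51437 in WT libraries. Spike-in UMIs had medians of 42788.5 and 43384.5 in the Mat KO libraries and 55772.5 and 48068.5 in WT. Meg3, a maternally read gene of the locus, had 18.4 and 32.8 CPM in the Mat KO libraries and 52.8 and 47.0 CPM in WT (log2 difference -0.93 ± 0.55 SE, edgeR adjusted p = 0.729), and since the deleted part is not given this does not check the labels. All 16 long-term HSC markers were detected in every library, with a median share of 0.230% and 0.235% of a cell's UMIs in the Mat KO libraries and 0.257% and 0.248% in WT. Cells also carried markers of other lineages: 15 granulocyte and monocyte markers took 3.37% and 0.578% of UMIs in the Mat KO libraries and 0.696% and 0.349% in WT, with Ctsg at 0 in 3 of the 4 libraries and Elane at 0 in Mat KO replicate 1 and WT replicate 2. By marker limits set after the data were seen, 27 and 42 Mat KO cells and 41 and 41 WT cells were low in all mature lineages ("lineage-low" below). The same 48 barcodes were used in each library, of which 44 passed the threshold on detected genes in all 4. The column names of all libraries carry 1 flow cell and lane. Cells with both Xist and Y-linked transcripts numbered 12 and 23 in the Mat KO libraries and 20 and 21 in WT, although each cell was picked singly.

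The clearest spread among the 10 genes was in the inducible HSP70 pair. Hspa1a, which encodes HSP70, had 4.74 and 3.39 CPM in Mat KO replicates 1 and 2, against 35.8 and 265 CPM in WT replicates 1 and 2. Those levels rest on 9 and 6 UMIs in the Mat KO libraries and 114 and 862 in WT. Both Mat KO libraries lay below both WT libraries, as they did for 21.3% of all genes tested, and the WT libraries differed from each other by more than WT replicate 1 differed from Mat KO on the CPM scale. The log2 difference, Mat KO minus WT, was -5.16 ± 0.89 (SE). Hspa1b, the second copy, had 1.58 and 10.2 CPM in the Mat KO libraries, against 21.7 and 182 CPM in WT, from 3 and 18 UMIs in Mat KO libraries and 69 and 591 in WT libraries. Its groups did not overlap either, and its log2 difference was -4.08 ± 1.01 (SE). The limit that a count of 0 would allow, 3 UMIs over a library, is 1.58 and 1.70 CPM in the Mat KO libraries and 0.942 and 0.922 CPM in WT, so Hspa1b in Mat KO replicate 1 sat at that limit.

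Both HSP70 genes have no intron and lie 9951 bases apart on the minus strand of chromosome 17 (GRCm38, Hspa1a at chr17:34969190-34972156 and Hspa1b at chr17:34956436-34959238). In GENCODE vM21 transcripts their coding sequences match at 1916 of 1923 aligned bases, or 99.6%, whereas Hspa1a and the constitutive Hspa8 match at 76.8%. After the stop codon the copies part ways, with 454 identical bases in tails of 813 and 646 bases, and a 3′ tag can tell them apart there. The handling of reads that match both copies was not given in the sources used here, so the split between them is uncertain and their sum is the safer value. Summed, the pair had 6.31 and 13.6 CPM in the Mat KO libraries, against 57.5 and 447 CPM in WT. The log2 difference of the sum was -4.63 ± 0.84 (SE). Without WT replicate 2 the log2 differences of Hspa1a and Hspa1b were -3.10 and -1.84.

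**Figure D1:**
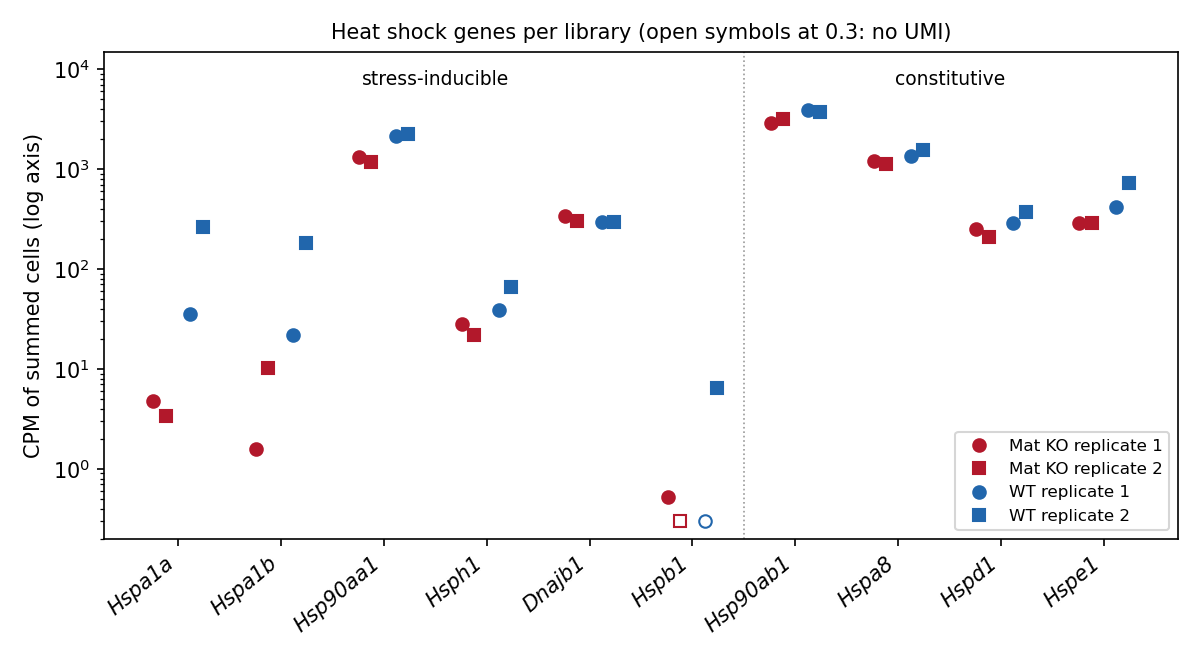
Level of each of the 10 genes in each library, in CPM of summed cells on a log axis, with Mat KO libraries in red left of WT libraries in blue and replicate 1 as circles, replicate 2 as squares. Hspa1a spans 3.39 to 265 CPM while Hsp90ab1 spans 2870 to 3923 CPM, and open symbols mark libraries in which Hspb1 had no UMI.

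A few cells held most UMIs of the pair, while the share of cells with any UMI of it differed widely between libraries. At least 1 UMI of either copy was found in 6 of 44 (13.6%, exact Clopper-Pearson 95% interval 5.17% to 27.4%) and 7 of 48 cells (14.6%, 6.07% to 27.8%) of Mat KO replicates 1 and 2. In WT replicates 1 and 2 it was found in 15 of 48 (31.2%, 18.7% to 46.3%) and 39 of 48 cells (81.2%, 67.4% to 91.1%). The WT libraries thus did not overlap in their intervals, while the interval of WT replicate 1 overlapped those of both Mat KO libraries. These intervals cover counting error only. Depth moved with detection: cells with the pair had median depths of 52940.5 and 28554 UMIs in the Mat KO libraries and 74113 and 56363 in WT, whereas cells without it had 26913.5 and 23651 UMIs in the Mat KO libraries and 49793 and 22047 in WT. After each cell was thinned to 8800 UMIs, which left 39 and 41 Mat KO cells and 46 and 44 WT cells and dropped 18, the shares were 2.56% and 7.32% in the Mat KO libraries and 17.4% and 45.5% in WT. These shares rest on 1 and 3 Mat KO cells and 8 and 20 WT cells, from 1 random thinning, and no intervals were computed for them. By share alone both Mat KO libraries were below both WT libraries, with WT replicate 2 again the highest.

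In every library the 4 leading cells held most of the pair's UMIs. These were 7, 1, 1 and 1 UMIs (83.3% of the library's pair UMIs) in Mat KO replicate 1, and 12, 4, 4 and 1 (87.5%) in Mat KO replicate 2. In WT replicate 1 they were 52, 44, 34 and 31 UMIs (88.0%), and in WT replicate 2 they were 583, 339, 148 and 128 (82.5%). Without those cells the pair stood at 1.30 and 1.84 CPM in the Mat KO libraries, against 8.29 and 86.5 CPM in WT. The order of the libraries was the same with and without the leading cells, and WT replicate 2 stood apart in its remaining cells too. Cells with 10 or more UMIs of the pair numbered 0 and 1 in the Mat KO libraries and 4 and 12 in WT.

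**Figure D2:**
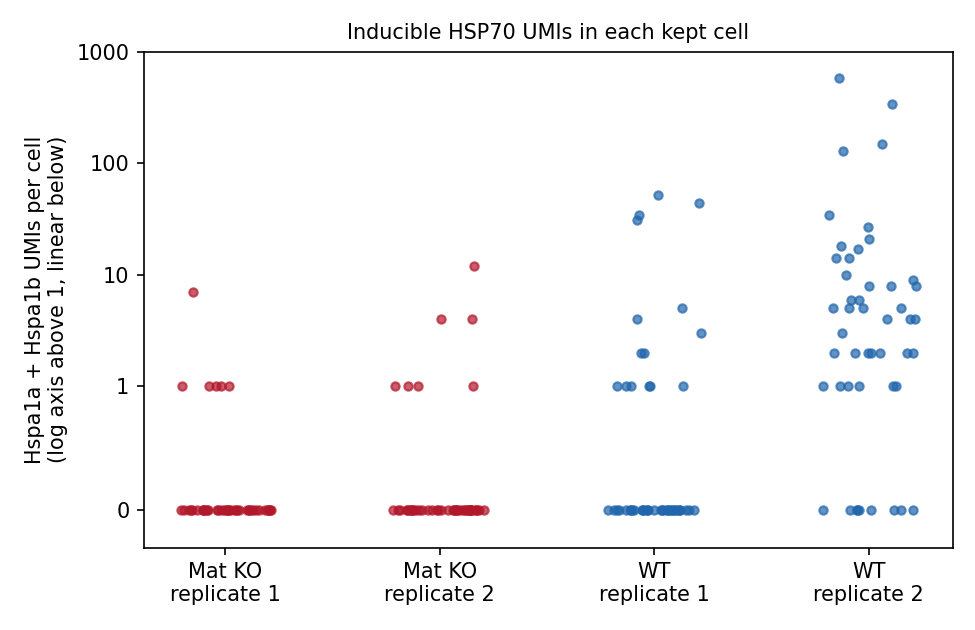
UMIs of Hspa1a plus Hspa1b in each of the 188 cells, by library with Mat KO on the left, on an axis that is logarithmic above 1 and linear below. Most Mat KO cells sit at 0 and the highest has 12 UMIs, while WT replicate 2 reaches 583 and has 39 of 48 cells above 0.

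As counted by the authors, the 2 copies did not keep step across cells. Of the 17 cells with at least 10 UMIs of the pair, 9 took over 80% of them from 1 copy, 5 from Hspa1a and 4 from Hspa1b. In WT replicate 2 the leading cell had 329 UMIs of Hspa1a and 254 of Hspa1b and the next had 247 and 92. The cells after these were one-sided in opposite ways, with 144 Hspa1a and 4 Hspa1b UMIs in the first and 3 and 125 in the other. WT replicate 1 ranged likewise between a cell with 51 Hspa1a and 1 Hspa1b UMIs and a cell with 8 and 23. The single Mat KO cell of this size had 0 and 12. Over thinned cells the rank correlation of the copies was -0.04 in Mat KO replicate 2 (41 cells), 0.17 in WT replicate 1 (46 cells) and 0.34 in WT replicate 2 (44 cells), and could not be computed in Mat KO replicate 1, where no thinned cell held Hspa1b. Cells of a library share its preparation, and the counts are sparse.

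**Figure D3:**
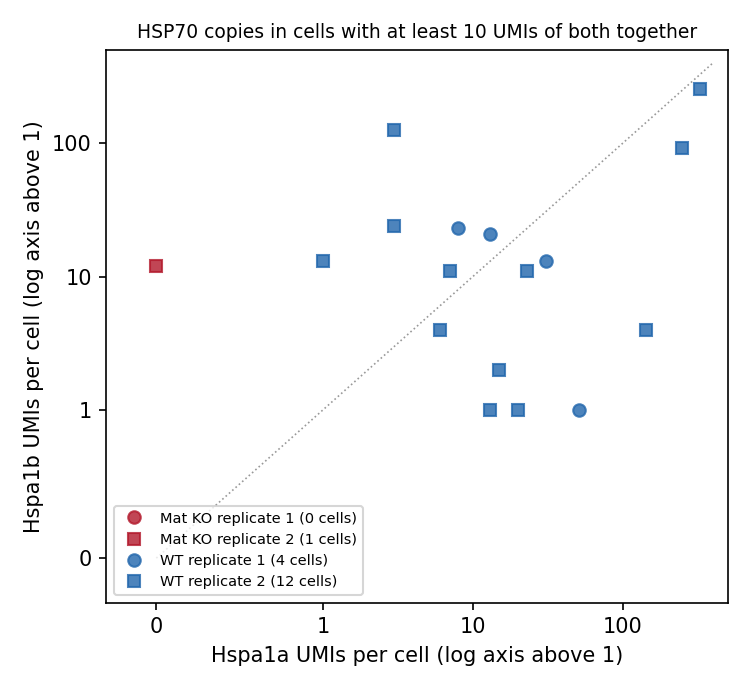
Hspa1a UMIs (horizontal) against Hspa1b UMIs (vertical) in the 17 cells with at least 10 UMIs of both together, axes logarithmic above 1, Mat KO in red and WT in blue, with a dotted line of equality. Cells fall on both sides of the line, and 9 of the 17 take over 80% of the pair from 1 copy.

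Some cells with the pair shared a barcode with a high cell of another library. The barcode of the 583-UMI cell of WT replicate 2 held 1 and 1 pair UMIs in Mat KO replicates 1 and 2 and 3 in WT replicate 1. The barcode of its 339-UMI cell held 1 and 0 in the Mat KO libraries and 44 in WT replicate 1, where it was the second-highest cell. The barcode of the 12-UMI cell of Mat KO replicate 2 held 34 UMIs in WT replicate 1. In total, 5 of the 12 pair UMIs of Mat KO replicate 1 and 18 of the 24 of Mat KO replicate 2 lay at barcodes with 10 or more pair UMIs in a WT library, which 13 of 44 (29.5%) and 14 of 48 (29.2%) of their cells carried. What part of these UMIs came from another library was not tested.

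For the pair, both Mat KO libraries were below both WT libraries in lineage-low cells and in the sex transcript classes below. All these subsets come from the same 4 libraries. B-lymphoid cells (6 and 3 in Mat KO, 5 and 1 in WT) did not follow this. There Hspa1a had 0 and 4.05 CPM in Mat KO libraries and 2.25 and 8.96 CPM in WT libraries. Hspa1b had 3.12 and 0 CPM in Mat KO libraries and 0 and 13.4 CPM in WT libraries of these cells. Among lineage-low cells alone the pair had 8.68 and 17.3 CPM in the Mat KO libraries, against 66.9 and 589 CPM in WT. All 17 cells with 10 or more UMIs were lineage-low. So were 27 of 44 and 42 of 48 Mat KO cells and 41 of 48 in each WT library. In the 583-UMI cell of WT replicate 2, B-lymphoid markers took 0.184% of UMIs, against a library median of 0.00835%. Long-term HSC markers took 0.148% in that cell, against a median of 0.248%. In cells with Xist and no Y-linked transcript the pair had 6.32 and 25.9 CPM in the Mat KO libraries, against 98.9 and 226 CPM in WT. In cells with Y-linked transcripts and no Xist it had 2.48 and 4.61 CPM in Mat KO libraries, against 36.7 and 409 CPM in WT libraries. In cells with both kinds of transcript it had 14.1 and 11.5 CPM in Mat KO libraries, against 55.6 and 561 CPM in WT libraries, so there Mat KO replicate 1 was the higher of its genotype.

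Hspb1 was nearly undetected. It had 1 and 0 UMIs in Mat KO (0.526 and 0 CPM) and 0 and 21 UMIs in WT (0 and 6.45 CPM), and it was not tested because it did not pass the filter on low counts. All 21 UMIs of WT replicate 2 came from 1 cell, the same cell that led the HSP70 pair with 583 UMIs. That cell also led Hsph1 in its library, with 50 UMIs, and held 1 UMI of Dnajb1. It had 52854 UMIs in all, close to the library's median of 51437, and the 6 inducible genes took 1.57% of them, the highest inducible share of any cell. By the 3-count limit, a count of 0 in 48 cells allows a share of cells with a UMI of up to 6.25%.

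Hsph1 had 28.4 and 22.1 CPM in the Mat KO libraries, against 38.6 and 66.1 CPM in WT, from 54 and 39 UMIs in Mat KO libraries and 123 and 215 in WT libraries. The groups did not overlap, and the log2 difference was -1.02 ± 0.54 (SE). It was -0.59 without WT replicate 2 and 0.16 in cells with Y-linked transcripts only. Among lineage-low cells Hsph1 had 33.7 and 27.0 CPM in Mat KO libraries and 33.3 and 48.3 CPM in WT libraries, which overlapped, with a log2 difference of -0.37. It was seen in 8 and 10 Mat KO cells and in 17 and 20 WT cells, and at equal depth in 12.8% and 7.32% of Mat KO cells and 13.0% and 29.5% of WT cells. Mat KO replicate 1 and WT replicate 1 were therefore close in share. Its coefficient of variation over cells had a median of 2.62 over libraries, less than Hspa1a (3.55) and Hspa1b (3.78). These coefficients, here and below, were computed at full depth and not matched for level. Scarce genes carry more counting error, so the coefficients do not rank genes by evenness alone.

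Hsp90aa1, the inducible cytosolic HSP90, was by far the most abundant of the inducible genes. It had 1329 and 1173 CPM in the Mat KO libraries, against 2153 and 2241 CPM in WT, and was found in all but 1 of the Mat KO cells and in all WT cells. Replicates were close in both genotypes, with means of 1251 ± 111 CPM in the Mat KO libraries and 2197 ± 62.1 CPM in WT (SD, n = 2 each), and the log2 difference was -0.78 ± 0.18 (SE). The median cell had 1146 and 1206 CPM in the Mat KO libraries and 1680 and 1961 CPM in WT. Its UMIs were spread over cells, the leading cells holding 253 of 2526 and 178 of 2074 UMIs in Mat KO libraries and 641 of 6855 and 671 of 7292 in WT libraries. The gene lies on chromosome 12, 1119 kb beyond the end of Meg3 (chr12:110690605-110702728, minus strand). Among lineage-low cells it had 1778 and 1309 CPM in the Mat KO libraries and 2185 and 2073 CPM in WT, so the groups stayed apart but came closer, with a log2 difference of -0.41.

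Dnajb1 ran the other way. It had 341 and 299 CPM in the Mat KO libraries, against 293 and 297 CPM in WT, a log2 difference of 0.15 ± 0.25 (SE). The groups did not overlap by a narrow margin of CPM, and 1 cell of Mat KO replicate 1 held 316 of its 648 UMIs (48.8%). With the leading cell of each library left out the log2 difference was -0.10. At equal depth Dnajb1 was seen in 56.4% and 68.3% of Mat KO cells and 63.0% and 65.9% of WT cells, which overlapped. Per cell its rank correlation with the HSP70 pair was 0.20 and -0.10 in the Mat KO libraries and 0.23 and -0.01 in WT (39, 41, 46 and 44 thinned cells). With the summed immediate early genes, which cells switch on within minutes of handling, it was 0.51 and 0.18 in the Mat KO libraries and 0.42 and 0.24 in WT. For the HSP70 pair with the same genes it was 0.23 and 0.30 in Mat KO libraries and 0.15 and 0.24 in WT libraries. Only 1 and 3 of the thinned Mat KO cells held the pair, so its Mat KO correlations rest on those cells.

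The cytosolic constitutive genes, Hsp90ab1 and Hspa8, were abundant and had the lowest median coefficients of variation of the 10. Hsp90ab1, the constitutive cytosolic HSP90, had 2870 and 3171 CPM in the Mat KO libraries, against 3923 and 3710 CPM in WT (log2 difference -0.30 ± 0.15 SE). It had a UMI in all 188 cells and the lowest median coefficient of variation of the 10 genes, 0.406. Hspa8, the constitutive HSP70 known as HSC70, had 1208 and 1132 CPM in the Mat KO libraries, against 1355 and 1547 CPM in WT (-0.28 ± 0.19 SE). Neither gene's groups overlapped over all cells. Among lineage-low cells Hsp90ab1 had 3297 and 3525 CPM in Mat KO libraries and 3961 and 3496 CPM in WT libraries, which overlapped. Hspa8 had 1352 and 1254 CPM in Mat KO libraries and 1403 and 1445 CPM in WT libraries of the same cells, and the log2 difference of both genes was -0.07 there. Hsp90aa1 and Hsp90ab1 match at 77.5% of aligned coding bases.

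The mitochondrial pair, also constitutive, was lower in level, with higher median coefficients of variation of 1.01 for Hspd1 and 1.04 for Hspe1. Hspd1 had 249 and 208 CPM in the Mat KO libraries, against 287 and 374 CPM in WT (-0.50 ± 0.27 SE). Hspe1 had 289 and 291 CPM in the Mat KO libraries, against 414 and 726 CPM in WT (-0.94 ± 0.29 SE). The Mat KO libraries lay close together for Hspe1, and WT replicate 2 stood highest for both. Without that library the log2 differences were -0.30 for Hspd1 and -0.49 for Hspe1. Although the genes face each other across shared promoter bases, their rank correlation over thinned cells was 0.27 and -0.11 in the Mat KO libraries and 0.22 and 0.07 in WT. In WT replicate 2, 3 cells high in an erythroid marker list, in which the 4 globin genes and Slc4a1 were at 0, had 1774 CPM of Hspe1 and 1019 of Hspd1, against 543 and 252 in its lineage-low cells, and the other libraries held no such cell. Among lineage-low cells Hspd1 had 317 and 248 CPM in the Mat KO libraries and 262 and 252 CPM in WT, which overlapped. In Mat KO replicate 1, 1 of these cells held 120 of the 329 Hspd1 UMIs, and B-lymphoid markers took 0.258% of that cell's UMIs and long-term HSC markers 0.0139%. With the leading lineage-low cell of each library left out, Hspd1 had 220 and 232 CPM in Mat KO libraries and 231 and 229 CPM in WT libraries. In lineage-low cells Hspe1 had 281 and 254 CPM in the Mat KO libraries and 329 and 543 CPM in WT.

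Across 10663 genes that passed the low-count filter, edgeR's quasi-likelihood test called 8 genes at a Benjamini-Hochberg adjusted p below 0.05, which is 0.075% of them, all higher in Mat KO. Leaving out a library gave 64 and 123 calls (without Mat KO replicate 1 and 2) and 34 and 17 (without WT replicate 1 and 2). None of the 9 heat shock genes tested was called, and nothing is read from this, since the genes were chosen for this contrast. In 8 of the 9 both Mat KO libraries lay below both WT libraries, a pattern that 21.3% of all genes tested showed. In the remaining gene, Dnajb1, both lay above, as in 17.8% of all genes. The median log2 difference over all genes tested was -0.01, against -1.02 over the 5 inducible and -0.40 over the 4 constitutive genes tested.

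Summed, the 6 inducible genes took 0.171% and 0.151% of UMIs in the Mat KO libraries, against 0.254% and 0.306% in WT. Hsp90aa1 made up 77.9% and 77.8% of that sum in the Mat KO libraries and 84.7% and 73.3% in WT, so the sum mainly follows that gene. The 4 constitutive genes took 0.462% and 0.480% in the Mat KO libraries, against 0.598% and 0.636% in WT, of which Hsp90ab1 was 62.2% and 66.0% in the Mat KO libraries and 65.6% and 58.4% in WT. Both sums were lower in both Mat KO libraries. With Hspa1a and Hspa1b left out the inducible share averaged 0.160% in the Mat KO libraries and 0.255% in WT, a difference of -0.0951 percentage points, against -0.119 with them.

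Per cell the median inducible share was 0.134% and 0.152% in the Mat KO libraries and 0.223% and 0.269% in WT. The median constitutive share was 0.411% and 0.461% in the Mat KO libraries and 0.564% and 0.604% in WT. Single cells of the genotypes overlapped widely, with quartiles of the inducible share at 0.0791% and 0.242% in Mat KO replicate 1, 0.103% and 0.205% in Mat KO replicate 2, 0.139% and 0.296% in WT replicate 1, and 0.179% and 0.348% in WT replicate 2. The inducible genes outweighed the constitutive ones in 3 and 1 Mat KO cells and in 1 and 5 WT cells. Over thinned cells the rank correlation of the 2 shares was 0.31 and 0.15 in the Mat KO libraries and 0.49 and 0.56 in WT (39, 41, 46 and 44 cells). These are descriptions of cells that share a library and its depth. With a cell's UMIs before thinning, the constitutive share gave 0.11 and 0.33 in the Mat KO libraries and 0.30 and 0.37 in WT. The inducible share gave -0.05 and 0.02 in the Mat KO libraries and 0.05 and 0.25 in WT. Hsp90aa1 alone gave 0.33 and 0.17 in the Mat KO libraries and 0.51 and 0.59 in WT against the constitutive share. The HSP70 pair gave -0.09 and 0.27 in the Mat KO libraries, where 1 and 3 thinned cells held it, and 0.12 and 0.01 in WT.

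**Figure D4:**
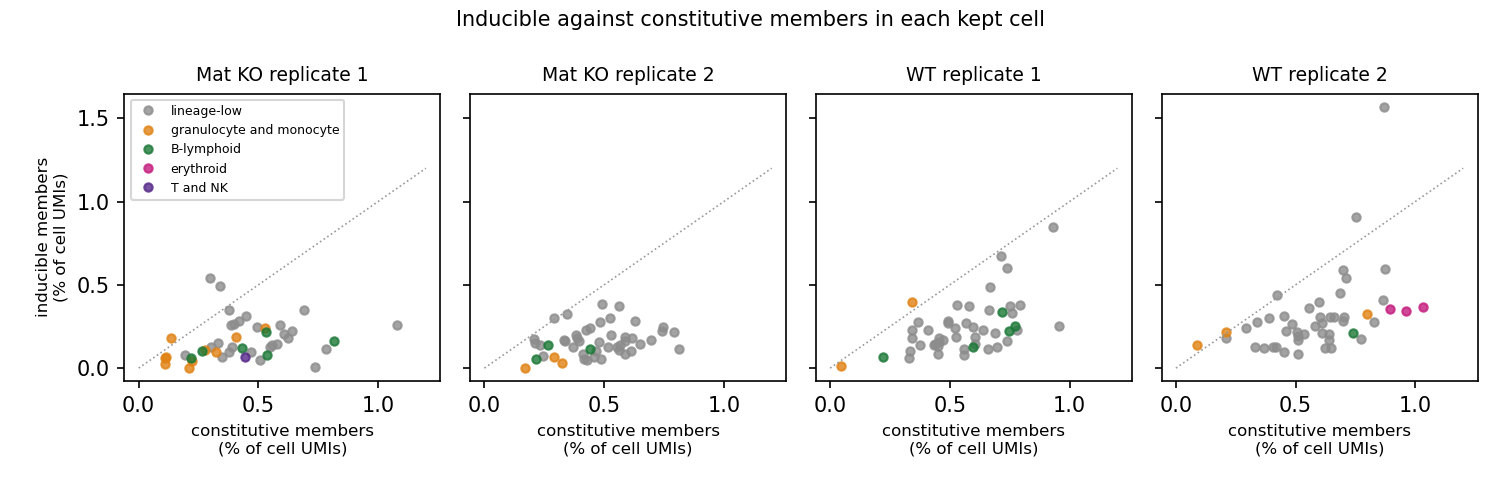
Share of each cell's UMIs in the 6 inducible genes (vertical, %) against its share in the 4 constitutive genes (horizontal, %), with 1 panel a library, Mat KO on the left, colours for marker classes and a dotted line of equality. Most cells lie under the line, and the cell at the top right of WT replicate 2 has 1.57% inducible against 0.868% constitutive.

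The constitutive share differed between marker classes of cells. Cells high in granulocyte and monocyte markers had median constitutive shares of 0.218% and 0.292% in Mat KO (10 and 3 cells) and 0.195% and 0.210% in WT (2 and 3 cells). Its 3 cells in WT replicate 2 were uneven, at 0.0893%, 0.210% and 0.797%, and the last was the deepest, so that their pooled share was 0.624%. B-lymphoid cells had medians of 0.483% and 0.267% in Mat KO libraries (6 and 3 cells) and 0.719% and 0.738% in WT libraries (5 and 1 cells). The 3 cells of WT replicate 2 high in the erythroid list had a median of 0.963% and supplied 13.1% of its UMIs. Lineage-low cells had 0.470% and 0.484% in the Mat KO libraries and 0.561% and 0.599% in WT. The granulocyte and monocyte class supplied 25.6% and 10.7% of UMIs in Mat KO libraries and at most 5.04% in WT libraries, and its part in the summed difference was not tested. Among lineage-low cells the pooled constitutive share was 0.525% and 0.528% in the Mat KO libraries and 0.596% and 0.574% in WT, and the pooled inducible share was 0.237% and 0.171% in the Mat KO libraries and 0.262% and 0.308% in WT. Both Mat KO libraries stayed below both WT libraries for each share in these cells. Immediate early genes had median shares of 1.28% and 1.12% in the Mat KO libraries and 1.61% and 1.36% in WT. Fos, an AP-1 subunit, had 2668 and 1732 CPM in the Mat KO libraries and 4406 and 2793 CPM in WT. Klf6 went the other way, with 729 and 677 CPM in the Mat KO libraries and 363 and 308 CPM in WT. By log2 difference, 6 of the 16 genes were higher and 10 lower in Mat KO. Pooled over cells, however, the immediate early shares were 1.27% and 1.06% in Mat KO libraries and 1.56% and 1.15% in WT libraries, which overlapped.

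Among pairs of the 10 genes, the highest mean rank correlation over the 4 libraries was that of Hsp90aa1 with Hspa8, at 0.56 and 0.15 in the Mat KO libraries and 0.46 and 0.40 in WT (39 and 41 against 46 and 44 thinned cells). Hsp90aa1 with Hsp90ab1 followed at 0.27 and 0.14 in the Mat KO libraries and 0.33 and 0.46 in WT. Searching 2847 genes for a cell-to-cell pattern like the constitutive sum gave Rps2 (mean 0.48), Ncl (0.43), Mif (0.39), Set (0.38) and Rpl14 (0.36). For the HSP70 pair the first genes were Gse1 (0.28), Gorasp2 (0.25) and Ubxn6, Chmp3 and Srp68 (0.24 each), which in counts this sparse is no finding.

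The rest of the chaperone network showed no called gene. Lists by role held 131 further genes, of which 114 were tested by edgeR. None passed at an adjusted p below 0.05, none did with DESeq2, and 4 higher and 6 lower in Mat KO had an unadjusted p below 0.05, against 7.82% of all genes in either direction. Of the 114, 49 had positive and 65 negative log2 differences, with a median of -0.10. TRiC, the ring that folds actin and tubulin, and prefoldin, which feeds it, gave 12 negative of 14 and a median of -0.37. Cct8 and Cct7, 2 TRiC subunits, had log2 differences of -0.71 ± 0.35 and -0.53 ± 0.29 (SE). Both were named for their small p, so nothing is read from their differences. The abundant Cct2 and Cct5 had -0.08 and -0.20, and Pfdn5 had 0.18. Over all genes tested 50.6% were negative.

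Co-chaperones of HSP70 and HSP90 gave 15 negative of 24 and a median of -0.25. Hspbp1, an exchange factor of HSP70, had 28.9 and 44.7 CPM in the Mat KO libraries, against 80.7 and 107 CPM in WT (-1.32 ± 0.44 SE). Fkbp4, an HSP90 partner in steroid receptor complexes, had 141 and 111 CPM in the Mat KO libraries, against 227 and 226 CPM in WT (-0.81 ± 0.29 SE). Both were below WT in both libraries, as were 21.3% of all genes tested. They were named for their small p, so nothing is read from their separation. St13, Ptges3 and Cdc37, the most abundant, had log2 differences of -0.51, -0.43 and 0.19.

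J-domain proteins split evenly, with 15 positive and 16 negative and a median of -0.03. Dnajc13, which acts on endosomes, had 93.1 and 114 CPM in the Mat KO libraries, against 18.2 and 50.7 CPM in WT (1.62 ± 0.51 SE). Dnajb2 had 90.0 and 59.9 CPM in the Mat KO libraries, against 32.4 and 31.7 CPM in WT (1.26 ± 0.46 SE). Dnajb6, the most abundant of them, had 469 and 650 CPM in the Mat KO libraries, against 386 and 355 CPM in WT (0.63 ± 0.26 SE). All 3 were above WT in both libraries, as Dnajb1 was by a smaller margin, a pattern that 17.8% of all genes tested showed. Dnajc13 and Dnajb2 were named for their small p, so nothing is read from their separation. Dnajc8 and Dnaja1 had log2 differences of -0.53 and -0.21.

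Mitochondrial chaperones and proteases had a median of -0.04 over 11 genes, with Clpp, the proteolytic chamber of a matrix protease, at 42.6 and 35.6 CPM in the Mat KO libraries, against 98.3 and 95.3 CPM in WT (-1.28 ± 0.40 SE). Afg3l2, an inner membrane protease subunit, had -1.33 ± 0.59 (SE), and Hspa9, the mitochondrial HSP70, had -0.20. Yme1l1 and Hscb had -0.06 and -0.60. Endoplasmic reticulum chaperones had a median of -0.14 over 17 genes. Hspa5, the reticulum's HSP70, had 917 and 963 CPM in the Mat KO libraries, against 760 and 951 CPM in WT (0.17 ± 0.21 SE), Hsp90b1 had 0.06 and Calr 0.22, while Sdf2 and P4hb had -0.96 ± 0.43 and -0.49 ± 0.29 (SE). Libraries of the genotypes did not separate in Hsp90b1. Clpp, Afg3l2, Sdf2 and P4hb were below WT in both Mat KO libraries, as were 21.3% of all genes tested. They were named for their small p, so nothing is read from their separation.

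Regulators and other targets of HSF1 had no called gene. Hsf1 had 22.6 and 27.7 CPM in the Mat KO libraries, against 38.0 and 33.2 CPM in WT (-0.47 ± 0.58 SE), Hsf2 had 0.48 ± 0.71 (SE) and the HSF binding protein Hsbp1 -0.47 ± 0.32 (SE). Other stress-induced HSF1 targets had a median of 0.09 over 14 genes, with 8 positive and 6 negative. Sqstm1, a receptor of autophagy, had 0.37, and Ahsa1, an HSP90 activator, had -0.76. Other cytosolic HSP70 and HSP110 genes had a median of -0.04 over 6 genes, with Hspa4 at -0.12, Hspa4l at 0.18 and Hspa14 at -0.004. Small heat shock proteins other than Hspb1 were scarce, Hspb6, Hspb8 and Cryab being the 3 of 8 tested, at 0.61, -0.12 and 0.10 with SEs of 1.14 or more. Among 16 immediate early genes none was called and the median was -0.25, with Fos at -0.68 ± 0.24 (SE), Klf6 at 1.10 ± 0.23 (SE), Fosb at 0.32 and Nr4a1 at -0.29. Fos and Klf6 had the smallest p of the 16, so nothing is read from their differences.

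**Figure D5:**
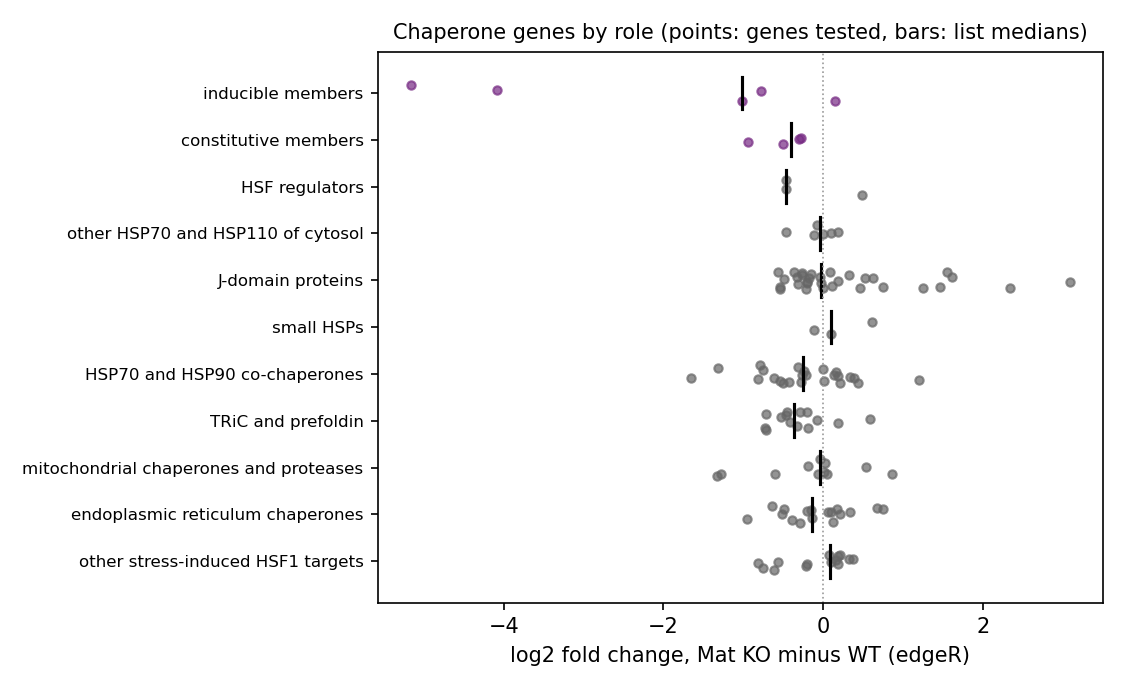
Log2 differences (Mat KO minus WT, edgeR) of the genes tested in each role list, with the 9 heat shock genes in purple and the others in grey, bars at the list medians and a dotted line at 0. Hspa1a and Hspa1b, at -5.16 and -4.08, lie to the left of every other gene, and the TRiC and prefoldin list has its median at -0.37.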

How the data were processed

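The deposited tables, 1 a library, hold unnormalized UMI counts by gene and barcode, with no cell filter. The labels' protocols describe a modified STRT-seq method. Per the submitters' processing notes the tools were HTSeq and TopHat2 2.0.12 and the build mm10. The counting of reads from near-identical genes was not given in the sources used here. A table had 96 barcodes, 24411 gene rows, of which 27 read as dates and were left as they stood, and 95 spike-in or marker rows, which stayed out of totals. Library totals over the cells used were 1900319 and 1768647 UMIs in the Mat KO libraries and 3183279 and 3253608 in WT.

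Cells with at least 1000 detected genes were summed per library, since cells are not replicates, and fitted with edgeR 4.0.16 (R 4.3.3, TMM factors, filterByExpr, quasi-likelihood test, genotype as the only term, Benjamini-Hochberg threshold 0.05). Log2 differences are Mat KO minus WT, and an SE is that difference over the root of the F statistic. DESeq2 1.42.0 was an alternative. Doublets were not called, and cells with both Xist and Y-linked transcripts were kept, although each cell was picked singly. Shares of cells and rank correlations (scipy 1.17.1) used cells thinned to 8800 UMIs, the 10th percentile. A cell was put in a marker class above 1% of its UMIs from granulocyte and monocyte markers or 0.4% from B-lymphoid, erythroid or T and NK markers.

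The 10 genes, the role lists and the marker lists were chosen with earlier results of these data known. Named genes were the 10, and in each list those that passed, or the 2 of smallest p, and the 3 of highest mean CPM. A gene that this rule names is not reported here. Same-numbered replicates did not deviate together (correlation -0.0174 over the 10663 genes tested, between the replicate differences of the 2 genotypes). The pipeline was tested on simulated data.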

Additional observations from a re-analysis of the deposited data

Results flagged for a closer look

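Barcodes not used as cells still carried UMIs of the abundant constitutive genes. The richest of these barcodes had 769 detected genes, and whether any of them held a cell was not tested. In Mat KO replicate 1, Hsp90ab1 had 16 UMIs and Hspa8 had 6 in barcodes not used as cells, and in WT replicate 1 Hsp90ab1 had 8. These lie above the 3 UMIs that a count of 0 allows, and no control wells were labelled as such. Over all 10 genes such barcodes held 26 and 2 UMIs in the Mat KO libraries and 13 and 9 in WT. With 2 libraries a genotype no outlier test was possible.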

How the results depend on the processing

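Hspa1a was lower in Mat KO under the 14 alternatives that could be fitted, between -5.99 and -3.10, and Hspa1b under 15, between -5.96 and -1.84. Both missed the count filter at equal depth and without the 4 leading cells, and Hspa1a in cells with Y-linked transcripts only. The smallest differences for both came without WT replicate 2. Hsp90aa1 lay between -1.26 and -0.41, Hsp90ab1 between -0.58 and -0.07, Hspa8 between -0.49 and -0.07 and Hspe1 between -1.30 and -0.49, each over 17. Hsph1 turned to 0.16 in cells with Y-linked transcripts only, Dnajb1 to -0.10 without leading cells and Hspd1 to 0.19 in lineage-low cells. With all 4 libraries kept, Hspa1a and Hsp90aa1 passed the threshold with DESeq2, without a gene filter and under the replicate block. Hspa1b passed under the latter 2, and Hspe1 without a gene filter only. Calls over all genes rose there too, to 109 of 10790, 149 of 14246 and 109 of 10663 genes tested. Nothing is read from these passes, since the genes were chosen for this contrast.

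Genes called, 8 in the fit reported, numbered 109 with DESeq2 (91 higher, 18 lower), 149 without a gene filter (119 higher, 30 lower), 4 at equal depth, 5 in cells with at least 2000 genes, 1 in lineage-low cells, 0 without leading cells, 0 in cells with Xist only and 1 in cells with Y-linked transcripts only. Leaving out a library gave 17 (WT replicate 2) to 123 (Mat KO replicate 2). With the replicate block, whose numbers share only a label, 109 were called (90 higher, 19 lower). Of the chaperone lists, Dnajc13 alone was called, 1 gene, under the replicate block and without a gene filter.

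The inducible share difference of -0.119 percentage points was -0.0807 in lineage-low cells and -0.0247 with Hsp90aa1 counted as constitutive, and -0.145 to -0.0936 leaving out a library. The constitutive difference of -0.146 was -0.123 at equal depth, -0.0583 in lineage-low cells and -0.241 with Hsp90aa1 added, and -0.165 to -0.127 leaving out a library. The cause of these shifts was not tested. Cell subsets by sex transcripts, without the 4 leading cells and without the HSP70 pair were chosen after seeing the data. Depth limits Hspb1, and Hspa1a and Hspa1b in Mat KO.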
